A study of Mus musculus with 12 samples.

Results

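B1 elements are short interspersed elements (SINEs) of the mouse genome, and their methylation was followed from embryonic stem cells into primordial germ cells. The members were all repeat features of the class SINE/Alu, the class under which mouse B1 copies are annotated, that had a methylation level in all 12 libraries. There were 2214 of them, out of 3648 SINE/Alu features seen in at least 1 library, 34707 repeat features of any class and 133311 features of all kinds with a level in all 12. The libraries were made by reduced representation bisulfite sequencing (RRBS), in which DNA is cut with MspI, an enzyme that recognises CCGG, and unmethylated cytosines are converted by bisulfite.

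There were 6 groups of 2 libraries, all from C57BL6 mice. Female ESC were embryonic stem cells of a female line, and pESC were embryonic stem cells of a parthenogenetic line, derived from oocytes activated without sperm. The study's methods describe both kinds of line as carrying an Actin-GFP transgene and as grown on feeder cells before induction. The lines were kept in medium with serum and LIF, and were moved to a medium named t2iL for some passages before induction. Which of these media the sequenced stem cells were in is not stated in the methods. Primordial germ cells (PGCs), from which eggs and sperm develop, came from C57BL6 embryos at embryonic day 9.5 (E9.5 PGC) and 12.5 (E12.5 PGC), which the methods describe as female. ESC-PGCLC and pESC-PGCLC were PGC-like cells made from each kind of line through epiblast-like cells (Activin A, bFGF and KSR) and then aggregates with BMP4, SCF, EGF and mLif. PGCLCs were enriched by sorting for SSEA1 and CD61, and PGCs by sorting on the same markers or by magnetic selection on SSEA1. Methylation levels do not show which cell types a library held, so the labels were not checked against marker genes. The labels do not say whether the 2 libraries of a group came from separate cultures or litters. The study calls them biological replicates, and the p-values below measure only the spread between them.

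B1 elements are copied through RNA, move with the enzymes of LINE-1 elements and are transcribed by RNA polymerase III. They share their origin with human Alu elements. CpG sites in such copies are normally methylated in somatic cells. Primordial germ cells lose methylation genome-wide while they migrate to and colonise the gonad, and cultured stem cells hold levels that depend on their medium. Old copies have lost many CpG sites by mutation of methylated cytosine, and young copies still hold most of theirs.

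The levels were filed by subfamily and consensus span, with no genome position, so no sequence is printed. The start of the span separated the features by how often they were measured. Of the SINE/Alu features whose span began at consensus position 1 or 2, 70.1% (794 of 1133) had a level in all 12 libraries. The share was 56.4% for spans that began at positions 11 to 20 and 47.3% for spans that began beyond position 50.

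Each feature is named by a subfamily and by the first and last position of the consensus it covers, such as B1_Mus1 1-147, and is called a row below. Copies of 1 subfamily with the same span share a label and cannot be told apart. The 2214 rows carried 16 subfamily names in 4 lineage groups. The PB1 group (proto-B1, the oldest) held 655 rows in PB1, PB1D7, PB1D9, PB1D10 and PB1D11. The B1F group held 425 rows in B1F, B1F1 and B1F2. The B1_Mur group, named for the mouse and rat family, held 572 rows in B1_Mur1 to B1_Mur4, and the youngest group, B1_Mus1, B1_Mus2 and B1_Mm, held 560. The name FAM (fossil Alu monomer) had 2 rows. From 2447 to 3486 SINE/Alu rows were measured per library, and no read counts came with them, so the depth behind a level is unknown and no counting interval is given.

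B1 methylation was highest in E9.5 PGC and far lower in E12.5 PGC, and it was higher in PGCLCs of either origin than in the stem cells they came from. The mean level over the 2214 rows was 40.1% and 31.6% in the ESC libraries and 36.7% and 35.3% in the pESC libraries. It was 61.9% in each E9.5 PGC library, and 40.4% and 40.9% in the E12.5 PGC libraries. It was 48.9% and 49.1% in ESC-PGCLC, and 45.5% and 44.9% in pESC-PGCLC. The libraries of E9.5 PGC, ESC-PGCLC, pESC-PGCLC and E12.5 PGC formed 4 levels in that order with no overlap. The ESC libraries lay furthest apart and enclosed both pESC libraries, and ESC replicate 1 was the higher at 76.7% of rows. In the other 5 groups the median difference between replicates at a row was from 2.71 points (E9.5 PGC) to 4.30 points (pESC), against 9.52 points in ESC. With 2 libraries against 2, the smallest p an exact two-sided permutation test of a mean can give is 0.333, so the means are given with their spread and no test. E9.5 PGC had the highest of the 6 group means at 2001 of the 2214 rows (90.4%), against 90.9% of all repeat rows and 67.3% of all features.

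**Figure D1:**
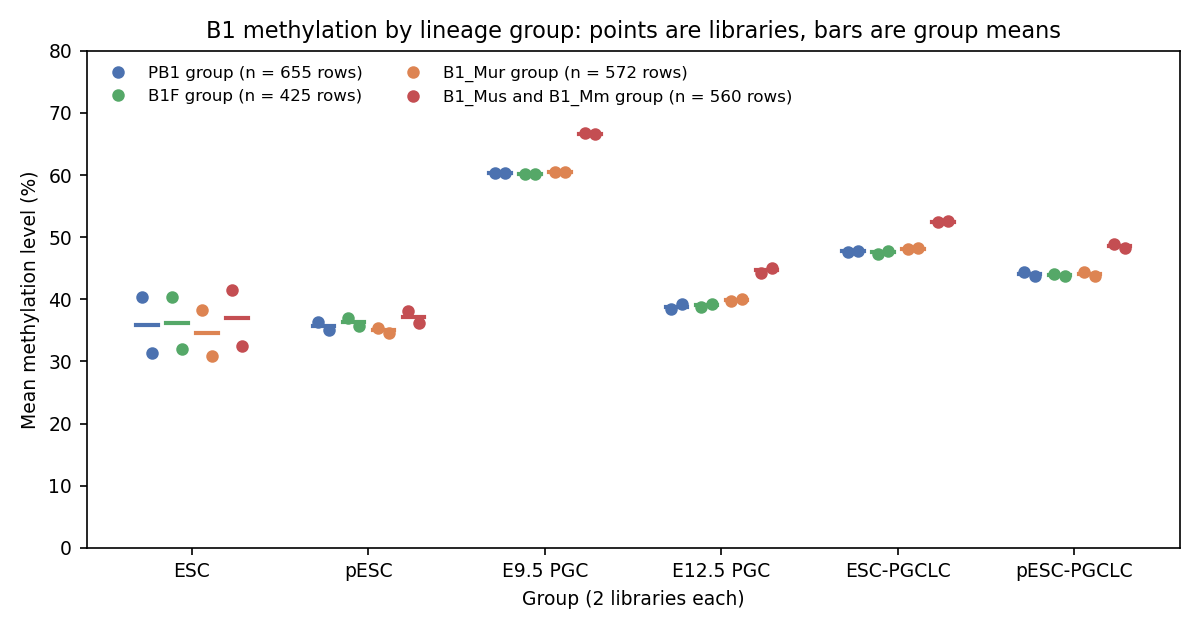
Mean methylation level (%, vertical axis) of the B1 rows of 4 lineage groups in each of the 6 groups of libraries. Points are single libraries and bars are the mean of 2 libraries. The B1_Mus and B1_Mm rows stand apart from the other 3 lineage groups in the PGC and PGCLC groups (66.7% against 60.2% to 60.4% in E9.5 PGC), and the 2 ESC libraries are the widest apart. The 2 FAM rows are left out.

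The shape of the distribution over rows differed between groups. In E9.5 PGC, 420 and 441 rows were at 80% or above in the 2 libraries, and in E12.5 PGC only 3 and 6 were. In the ESC libraries 76 and 6 rows reached 80%, and in the other stem cell and PGCLC libraries from 15 to 83 did. At the low end, 298 and 309 rows were under 10% in ESC and 259 and 308 in pESC, against 87 and 89 in E9.5 PGC. E12.5 PGC had the narrowest distribution, with an SD over rows of 14.7 points against 21.6 in E9.5 PGC.

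**Figure D2:**
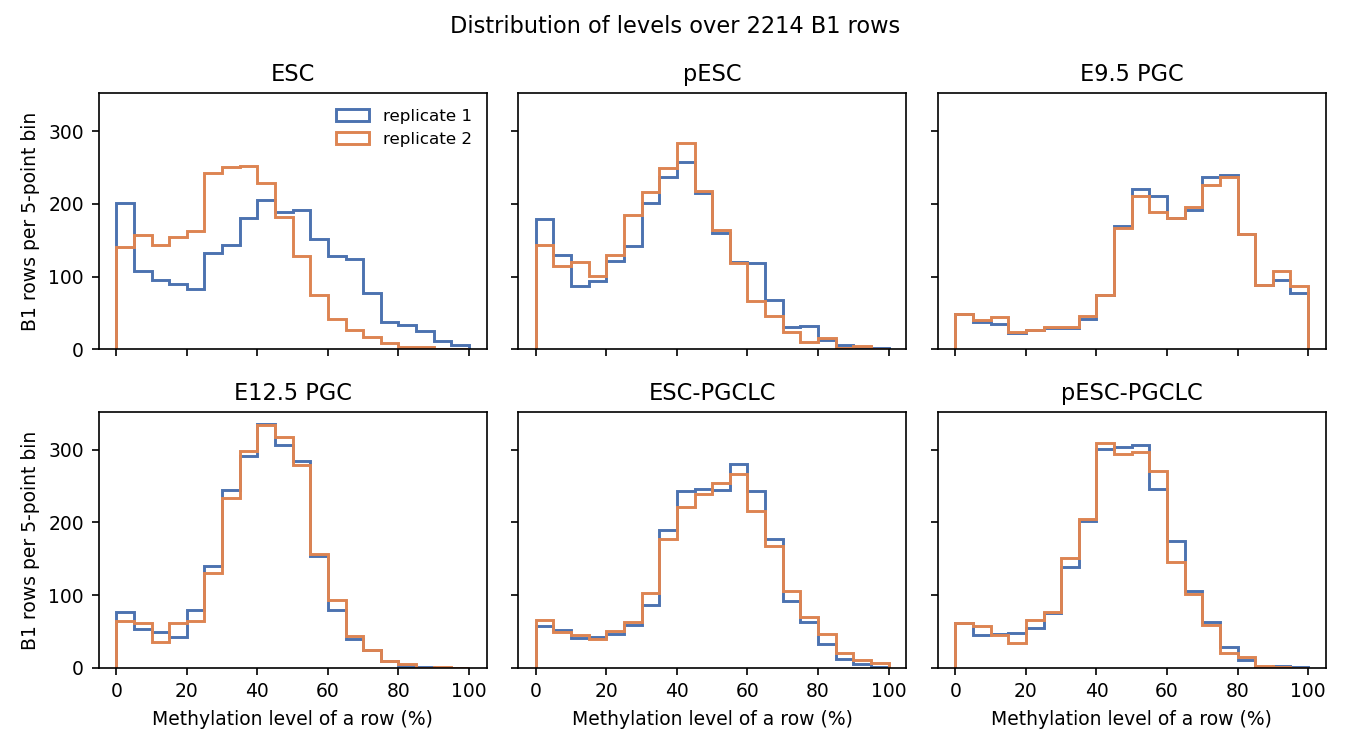
Number of B1 rows in each 5-point bin of methylation level (horizontal axis, %), with 1 panel for each group and 1 line for each replicate. The stem cell groups have a separate peak of rows near 0, E9.5 PGC spreads up to 100, and E12.5 PGC has a single narrow peak near its mean of 40.6%. The replicates overlie each other in each group but ESC.

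Rows that were alike in the stem cells were not all alike in the germ cells. The rows were put in bins by their stem cell level, so the stem cell levels of a bin are no finding. The 294 rows with a mean under 10% over the 4 ESC and pESC libraries had a median of 30.2% in E9.5 PGC, 18.7% in E12.5 PGC, 21.2% in ESC-PGCLC and 18.2% in pESC-PGCLC. Of these, 94 were at 50% or above in E9.5 PGC. The 341 rows with a mean of at least 55% in the stem cells had a median of 81.0% in E9.5 PGC, 53.5% in E12.5 PGC, 68.2% in ESC-PGCLC and 63.5% in pESC-PGCLC. Between group means over the 2214 rows, Pearson's r was 0.969 for ESC with pESC, 0.944 for ESC-PGCLC with pESC-PGCLC and 0.910 for E9.5 PGC with E12.5 PGC. It was 0.593 for ESC with E9.5 PGC, 0.692 for ESC with ESC-PGCLC and 0.914 for ESC-PGCLC with E9.5 PGC. These values run across rows that share base composition and copies in every library, rows are not independent replicates, and no test was made.

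Of the youngest subfamilies, B1_Mm and B1_Mus2 ranked high in every library over all their rows, and B1_Mus1 did not. B1_Mm was the highest of the 15 subfamilies other than FAM in each of the 12 libraries, and B1_Mus2 ranked between the second and the fourth. B1_Mus1 ranked from 3 to 14. In E9.5 PGC, B1_Mm was at 71.8% and 71.1%, B1_Mus2 at 67.3% and 67.3%, and B1_Mus1 at 63.1% and 63.3%. PB1D7 (57.6% and 57.0%) ranked last or last but 1 in every library. B1_Mm, B1_Mus2 and the remaining subfamilies did not overlap in E9.5 PGC, whereas B1_Mus1 and the proto-B1 PB1D10 (63.1% and 63.0%) could not be told apart by their libraries. PB1D10 ranked between the second and the fifth, so the order over all rows, whose spans differ between subfamilies, did not follow age throughout.

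The distance between the subfamilies depended on the group. In E9.5 PGC the means of PB1D7 and B1_Mm were 57.3% and 71.4% (SD of the 2 libraries 0.463 and 0.493 points). In E12.5 PGC they were 36.6% and 48.6%, in ESC-PGCLC 45.1% and 55.5% and in pESC-PGCLC 41.5% and 52.1%. In ESC they were 33.2% and 39.3%, where the SD of the 2 libraries was 6.17 points for PB1D7 and 7.31 points for B1_Mm, and in pESC 32.4% and 39.6%. In ESC every pair of subfamilies overlapped when replicates were set side by side, but within each ESC library B1_Mm was above PB1D7 (44.5% against 37.6%, and 34.1% against 28.8%). By lineage group, E9.5 PGC had 60.3% in PB1, 60.2% in B1F, 60.4% in B1_Mur and 66.7% in B1_Mus and B1_Mm, with an SD of the 2 libraries of at most 0.039 points.

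**Figure D3:**
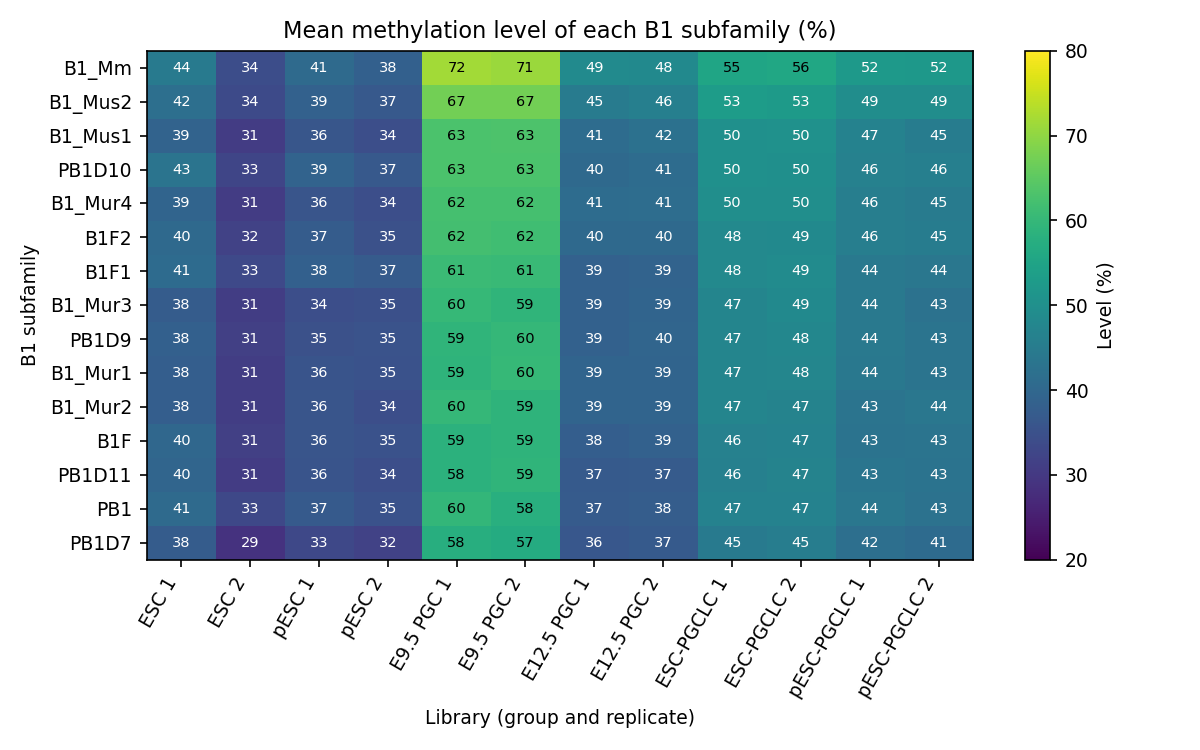
Mean methylation level (%, colour and printed value) of 15 B1 subfamilies (vertical axis, ordered by their E9.5 PGC mean) in the 12 libraries (horizontal axis). B1_Mm has the highest value in each column, and the E9.5 PGC columns run from 57.3% (PB1D7) to 71.4% (B1_Mm) as group means. FAM, with 2 rows, is left out.

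The order of the youngest subfamilies was looked at again over spans that each pair shared, since the subfamilies cover different stretches. Over 45 shared spans B1_Mm exceeded B1F in 12 of 12 libraries, by 1.43 to 15.2 points, with a mean difference of 14.5 points in E9.5 PGC and 3.08 points in ESC. Over 65 shared spans it exceeded B1_Mus1 in 12 of 12 libraries, by 10.01 points in E9.5 PGC and 2.73 points in ESC. Over 15 shared spans it exceeded the proto-B1 PB1D9 in 9 of 12 libraries, with mean differences of 14.9 points in E9.5 PGC, -1.87 points in ESC and -0.657 points in pESC. Over 71 shared spans it exceeded B1_Mus2 in only 5 of 12 libraries, with differences from -2.24 to 1.41 points, so the higher overall mean of B1_Mm over B1_Mus2 was not seen at equal spans. B1_Mus2 exceeded B1_Mus1 in 12 of 12 libraries over 80 shared spans, by 10.6 points in E9.5 PGC. B1_Mus1 in turn exceeded B1F over 62 shared spans and B1_Mur1 over 61, each in 12 of 12 libraries. These differences were 11.5 and 6.06 points in E9.5 PGC, and 5.31 and 3.10 points in ESC. Within the proto-B1 names, PB1D10 exceeded PB1D7 in 12 of 12 libraries over 47 shared spans, by 3.48 points in E9.5 PGC and 1.98 points in ESC. B1_Mm exceeded PB1D10 in 12 of 12 libraries over 21 shared spans, by 11.3 points in E9.5 PGC and 3.55 points in ESC. PB1D10 was not set against B1_Mus1 or B1_Mus2 at shared spans.

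The span 1-147, close to the whole element, was the longest held by more than 10 subfamilies, 11 in all. B1_Mm 1-147 was at 49.5% and 36.8% in ESC, 44.0% and 41.5% in pESC, 75.5% and 75.2% in E9.5 PGC, 50.9% and 50.9% in E12.5 PGC, 59.5% and 59.8% in ESC-PGCLC, and 55.03% and 54.8% in pESC-PGCLC. Its replicates were close together in the PGC and PGCLC groups, which overlapped neither each other nor the stem cells. B1_Mus2 1-147 was at 47.5% and 35.4% in ESC, 42.5% and 40.3% in pESC, 75.8% and 75.4% in E9.5 PGC, 50.9% and 51.6% in E12.5 PGC, 59.9% and 60.1% in ESC-PGCLC, and 55.1% and 54.5% in pESC-PGCLC. B1_Mus1 1-147 was lower, at 44.4% and 33.6% in ESC, 39.9% and 38.5% in pESC, 70.1% and 69.8% in E9.5 PGC, 46.6% and 46.5% in E12.5 PGC, 54.6% and 55.3% in ESC-PGCLC, and 50.7% and 49.4% in pESC-PGCLC. In these 3 rows the PGC and PGCLC groups stood in the same order as over the whole set, with ESC and pESC below them and overlapping. The older B1F 1-147 was at 51.8% and 32.6% in ESC, 50.2% and 42.9% in pESC, 61.6% and 59.2% in E9.5 PGC, 35.3% and 35.2% in E12.5 PGC, 46.6% and 48.6% in ESC-PGCLC, and 46.2% and 43.3% in pESC-PGCLC. In B1F 1-147 the E12.5 PGC level lay within the range of the stem cell libraries and the PGCLC levels did not stand above them. Of the other rows with this span, B1_Mur3 1-147 was at 69.3% and 64.9% in E9.5 PGC. In E12.5 PGC it was at 50.6% and 50.1%, close to B1_Mm 1-147. B1F2 1-147 was below B1F 1-147, at 43.2% and 41.3% in E9.5 PGC and 26.2% and 27.0% in E12.5 PGC. B1_Mur4 1-147 was also below B1F 1-147, at 52.0% and 48.8% in E9.5 PGC and 35.2% and 34.1% in ESC-PGCLC. B1F1 1-147 was at 76.7% and 60.4% in E9.5 PGC. In PB1D10 1-147 the ESC-PGCLC libraries (34.7% and 37.5%) lay below those of E12.5 PGC (44.3% and 40.9%) and pESC-PGCLC (45.3% and 50.9%). The rows with this span thus did not follow age throughout.

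**Figure D4:**
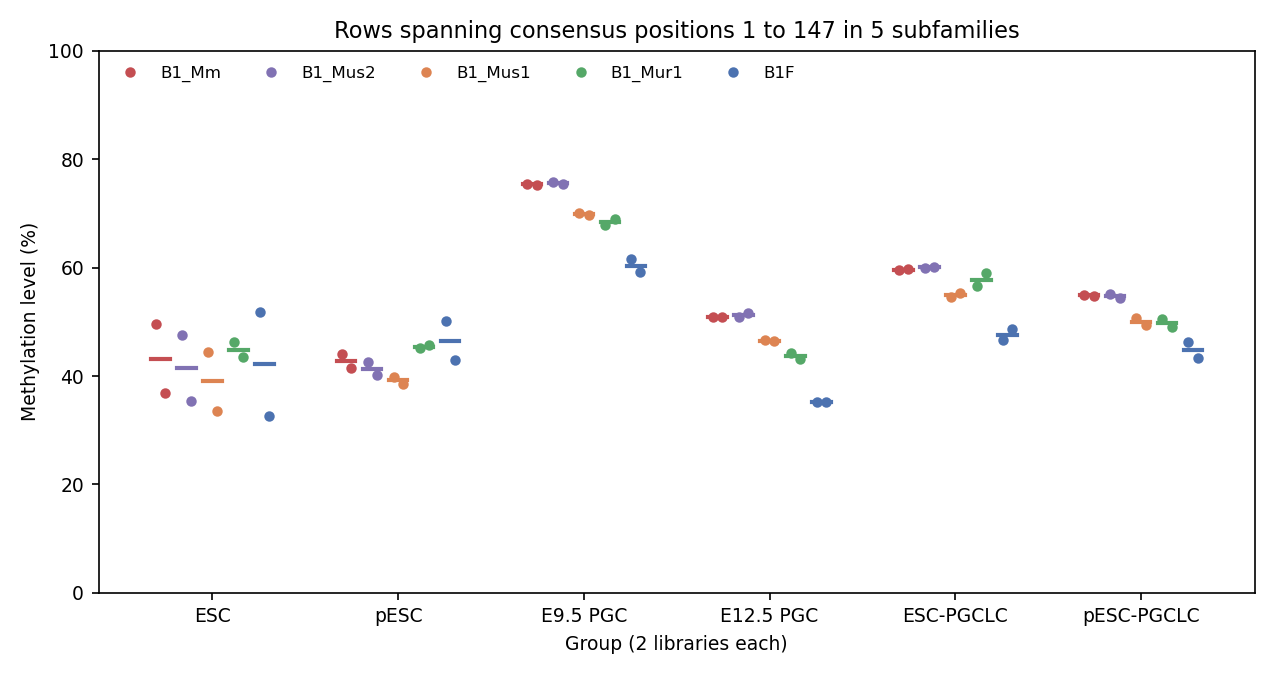
Methylation level (%, vertical axis) of the row spanning consensus positions 1 to 147 in 5 subfamilies, in the 6 groups. Points are libraries and bars are means of 2. Of these 5 rows, B1_Mm and B1_Mus2 lie together at the top and B1F lies lowest in the PGC and PGCLC groups. In ESC and pESC the 5 rows are mixed. The other rows with this span are not drawn.

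Rows near full length were, as a whole, more even than the others. The 181 rows that began at position 1 or 2 and ended at position 140 or later had an SD over rows of 14.3 points in E9.5 PGC, against 22.1 points over the other 2033 rows, and a median difference between replicates of 1.47 points against 2.80. Among them, the 54 rows of B1_Mus and B1_Mm were at 74.4% in E9.5 PGC (SD of the 2 libraries 0.427 points), 49.8% in E12.5 PGC, 59.3% in ESC-PGCLC and 54.7% in pESC-PGCLC, with an SD over rows of 6.69 points in E9.5 PGC. The 76 rows of B1_Mur were at 63.3% and the 46 of B1F at 63.0% in E9.5 PGC. The 5 rows of PB1 went the other way, with an SD over rows of 24.8 points against 22.9 over the other PB1 rows and a median difference between replicates of 6.97 points against 2.96. The number of copies and reads behind a row is not given, so its part in this evenness was not tested. Over all rows, level changed little with span length, from 60.1% in E9.5 PGC for spans of up to 60 bases to 64.6% for spans of 136 bases or more.

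The comparisons between groups were tested row by row with limma on the log2 odds of the level, together with all other features, and a row was called when it passed an adjusted p of 0.05 (Benjamini-Hochberg) with group means 10 percentage points or more apart. The groups also differed over all features, whose median level was 33.97% to 35.1% in E9.5 PGC, 19.2% to 19.8% in E12.5 PGC, 22.7% to 25.4% in the PGCLCs and 11.2% to 13.3% in the stem cells. Members are therefore set beside all features, and calls are also given with the median of every library set to the same value, termed centring.

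The first comparison was between E9.5 and E12.5 PGCs, the window in which PGCs lose methylation. Of the 2214 rows, 1796 were called, of which 1795 fell and 1 rose. Of all 137202 features tested, 49.6% were called, and 49.6% were called lower. The share called was 81.1% in B1, below the 85.1% of repeats other than B1, 84.0% of B2 and 87.4% of LINE-1. The mean was lower at E12.5 by 21.3 points (40.6% ± 0.381 against 61.9% ± 0.0028, SD, n = 2 each). The median difference was -21.9 points over the rows, -22.6 over B2 SINEs, -22.5 over B4 SINEs, -17.9 over LINE-1 and -11.5 over all features. E12.5 PGC kept 65.6% of the E9.5 level over all rows, 68.1% in B1_Mm and 63.1% in PB1D11. The corresponding share was 65.8% in B2, 64.4% in B4, 70.7% in ERVK and 72.2% in LINE-1. The call rate was 84.6% in B1_Mus and B1_Mm, 80.2% in B1F, 80.2% in B1_Mur and 79.5% in PB1. Over all rows, whose spans differ, B1_Mm had the largest difference of mean levels (-22.8 points) and B1_Mur2 the smallest (-20.0 points). At shared spans B1_Mm exceeded B1_Mur4 by 5.39 points in E9.5 PGC and 6.75 in E12.5 PGC, and B1_Mus2 by 0.812 and 0.867 points. The larger fall of B1_Mm was therefore not seen against these subfamilies at equal spans. Its lead over each other subfamily set against it was smaller in E12.5 PGC than in E9.5 PGC. After centring, 603 of the 2214 rows were called, 538 lower and 65 higher, beside 63569 of all 137202 features.

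None of the 3 rows with the largest falls was of B1_Mus or B1_Mm. PB1D11 11-86 was at 92.9% and 100% in E9.5 PGC and at 28.6% and 19.5% in E12.5 PGC, a fall of 72.4 points (log2 odds change -6.73 ± 0.97 SE, adjusted p = 0.00124 by limma). It was at 0% in each ESC library. PB1D11 1-120 was at 54.8% and 85.7% against 3.85% and 7.69%, and B1_Mur2 5-133 at 100% and 95.2% against 30% and 43.5%. The only row called higher was B1_Mur1 7-149, from 13.4% and 3.70% to 30.1% and 46.2% (adjusted p = 0.0194 by limma). These rows were picked by their difference between the stages, so the lack of overlap between their E9.5 and E12.5 libraries is no finding. Among the 1-147 rows shown above, B1_Mm fell with little spread (log2 odds change -1.52 ± 0.086 SE, adjusted p = 7.47e-05 by limma), and so did B1F.

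Both kinds of PGCLC lay between the PGC stages. The 2 comparisons with E9.5 PGC share its libraries. In ESC-PGCLC, 1253 rows were called against E9.5 PGC, of which 1249 were lower and 4 higher, beside 29.8% of all features called and 29.6% called lower. In pESC-PGCLC, 1550 were called, 1546 lower and 4 higher, beside 40.3% of all features called and 40.2% called lower. The share of B1 rows called was 56.6% in ESC-PGCLC and 70.0% in pESC-PGCLC, against 40.5% and 62.3% of repeats other than B1. The mean was lower than in E9.5 PGC by 12.9 points in ESC-PGCLC and by 16.8 points in pESC-PGCLC. ESC-PGCLC held 77.7% to 80.2% of the E9.5 level in the 15 subfamilies other than FAM, and pESC-PGCLC held 72.3% to 73.6%. By subfamily, the difference of ESC-PGCLC from E9.5 PGC was largest in FAM (-18.8 points, 2 rows) and then B1_Mm (-15.9 points), and smallest in B1_Mur3 (-11.8 points). For pESC-PGCLC it was likewise largest in FAM (-21.8 points) and then B1_Mm (-19.3 points), and smallest in PB1 (-15.5 points). After centring, 305 rows were called for ESC-PGCLC (260 lower, 45 higher) and 471 for pESC-PGCLC (424 lower, 47 higher). Of all 137202 features, 29617 and 48932 were then called.

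A few rows stood out within these comparisons. PB1D10 5-118 was at 92.3% and 91.5% in E9.5 PGC and at 40.2% and 25.6% in ESC-PGCLC. PB1 3-93 was at 79.5% and 76.0% in E9.5 PGC and 67.2% and 58.0% in E12.5 PGC, against 22.1% and 21.6% in ESC-PGCLC and 44.3% and 27.7% in pESC-PGCLC. Its ESC-PGCLC level therefore lay far below that of either PGC stage. It lay between the 2 ESC libraries (28.7% and 13.2%) and near pESC (19.1% and 17.7%). B1_Mus1 43-148 was at 83.8% and 87.8% in E9.5 PGC against 30.3% and 30.8% in pESC-PGCLC, and at or under 2.94% in each stem cell library. Of the rows that were higher than in E9.5 PGC, B1F 2-127 was called in both kinds of PGCLC, at 57.6% and 63.9% in E9.5 PGC, 72.9% and 70.5% in ESC-PGCLC and 72.2% and 73.0% in pESC-PGCLC. B1F1 4-139 was at 28.7% and 28.1% in E9.5 PGC and 42.8% and 41.9% in ESC-PGCLC, and B1_Mus1 2-91 at 9.04% and 7.69% in E9.5 PGC and 24.3% and 25.6% in pESC-PGCLC. The remaining rows named by size were B1_Mur1 7-149 (higher) and PB1D11 11-86 (lower) in ESC-PGCLC, and PB1D11 17-85 (higher), PB1D11 11-86 and B1_Mur2 46-148 (lower) in pESC-PGCLC.

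Against E12.5 PGC the PGCLCs were higher. In ESC-PGCLC 687 rows were called, 673 higher and 14 lower, beside 22.8% of all features called and 22.2% called higher. In pESC-PGCLC 174 were called, 168 higher and 6 lower, beside 7.1% of all features called and 6.81% called higher. The share of rows called in pESC-PGCLC was thus 7.86%, near that of all features, and it was 12.8% over repeats other than B1. In ESC-PGCLC the share was 31.0% of the B1 rows and 40.2% of repeats other than B1. The means were higher by 8.39 points in ESC-PGCLC and by 4.57 points in pESC-PGCLC, and no library of either overlapped E12.5 PGC. By subfamily the difference for ESC-PGCLC ran from 3.16 points (FAM) and 6.91 points (B1_Mm) to 9.73 points (B1F1), and for pESC-PGCLC from 0.201 points (FAM) and 3.46 points (B1_Mm) to 6.05 points (PB1D11). The pESC-PGCLC count rested on the full set of libraries: without a single library it was 0 (pESC-PGCLC replicate 1), 3 (pESC-PGCLC replicate 2), 5 (E12.5 PGC replicate 1) or 28 (E12.5 PGC replicate 2), and with the replicate number as a block it was 110. After centring, 152 rows were called for ESC-PGCLC (117 higher, 35 lower) and 13 for pESC-PGCLC (8 higher, 5 lower). Of all 137202 features, 8188 and 1136 were then called.

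Among single rows, B1_Mur4 16-120 was at 80.1% and 83.8% in ESC-PGCLC against 28.4% and 34.0% in E12.5 PGC, a difference of 50.7 points (adjusted p = 0.00127 by limma). PB1D11 1-103 was at 56.9% and 87.5% against 24.6% and 18.8%, and B1F 66-140 at 74.2% and 85.7% against 33.3% and 40%. PB1 3-93, B1F 12-130 and PB1D11 1-78 were lower in ESC-PGCLC than in E12.5 PGC, with differences of -40.7, -29.97 and -27.1 points. In pESC-PGCLC the largest rises over E12.5 PGC were in PB1 37-116, B1_Mur1 54-140 and B1F1 6-92, of 32.2, 31.1 and 26.0 points, and B1_Mus1 43-148, PB1 3-93 and PB1D7 2-99 were lower, with differences of -35.1, -26.6 and -21.1 points. B1F1 6-92 was nearly unmethylated in E12.5 PGC (2.30% and 3.96%) and at 26.2% and 32.1% in pESC-PGCLC.

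The study's central contrast is that of parthenogenetic with fertilised origin. In the stem cells no row was called between pESC and ESC, and 0% of the 148012 features tested were. Of the rows, 46 had an unadjusted p under 0.05 (2.08%, against 1.39% of all features). The mean difference was 0.131 points, far inside the SD of the 2 ESC libraries (5.99 points), with a median of 0.024 points and a range of 5th to 95th percentile from -6.86 to 7.97 points. By subfamily it ran from -0.889 points (PB1) to 0.873 points (B1_Mur1). Without pESC replicate 1 or 2 the call count was 13 or 9. Single-library differences of mean level ran from -4.77 to 5.03 points, so a difference of that size between the origins was not detectable here.

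In the PGCLCs, pESC-PGCLC were lower than ESC-PGCLC by 3.82 points on average (45.2% ± 0.409 against 49.0% ± 0.152, SD, n = 2 each), and the libraries did not overlap. The difference was negative at 1758 rows (79.4%), with a median of -3.87 points, against -4.50 points over B2, -4.30 over B4, -3.24 over LINE-1 and -0.953 over all features. It ran from -4.64 points (B1F1) to -2.96 points (FAM) over the subfamilies. Only 3 rows were called, each lower in pESC-PGCLC, beside 0.0948% of all features called. An unadjusted p under 0.05 was found at 572 rows (25.8%), against 19.4% of all features, 24.9% of all repeats and 32.5% of B2. B1_Mur4 16-120 was at 80.1% and 83.8% in ESC-PGCLC and at 45.8% and 43.8% in pESC-PGCLC (adjusted p = 0.0238 by limma). B1F1 4-139 was at 42.8% and 41.9% against 21.3% and 19.0% (adjusted p = 0.0316), and B1_Mur1 57-132 at 81.4% and 81.2% against 65.8% and 63.4% (adjusted p = 0.0398). In the stem cells these 3 rows were mixed between the origins, for example B1_Mur4 16-120 at 28.2% and 15.04% in ESC and 22.0% and 22.5% in pESC. The count was 40 with an offset of 0.1 and 52 on untransformed levels, and 0 with the replicate block. Without 1 library it was 10 or 1 (ESC-PGCLC replicate 1 or 2) or 0 (pESC-PGCLC replicate 1 or 2).

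B1 methylation was higher after induction in both origins. The epiblast-like cells in between were not measured, and the study cites earlier reports of higher methylation in them. The differences below compare only the start and the end of induction. In ESC-PGCLC against ESC, 672 rows were called, of which 656 rose and 16 fell, beside 14.6% of all features called and 13.7% called higher. In pESC-PGCLC against pESC, 418 were called, of which 403 rose and 15 fell, beside 9.66% of all features called and 8.91% called higher. The mean was higher by 13.1 points after induction of ESC (35.9% ± 5.99 to 49.0% ± 0.152, SD, n = 2 each) and by 9.19 points after induction of pESC (36.0% ± 0.939 to 45.2% ± 0.409). The median difference over the rows was 11.1 points from ESC and 7.13 points from pESC. It was 10.8 and 6.23 points over B2, 8.89 and 5.18 over B4, 2.69 and 0.066 over LINE-1, and 1.26 and 0.566 over all features. Before induction B1 stood well below LINE-1 (35.9% against 51.8% in ESC), and in E9.5 PGC the gap was small (61.9% against 66.3%). The differences between repeat classes were not tested.

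**Figure D5:**
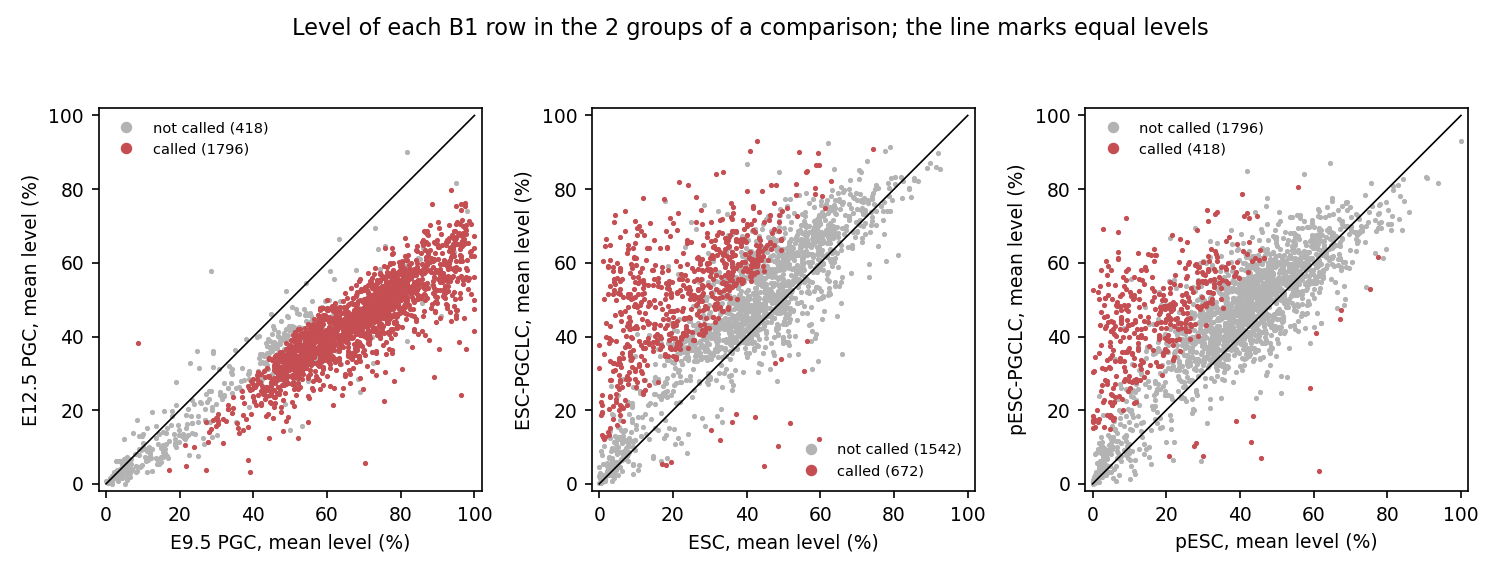
Mean level of each of the 2214 B1 rows (%) in the 2 groups of 3 comparisons, with rows called by limma in red and the line of equal levels in black. In the left panel nearly all points lie below the line, with 1795 called lower, and in the other panels most called rows lie above it, with 656 and 403 called higher.

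The share of rows called differed by lineage group, over rows whose spans differ, and this difference was not tested. In ESC-PGCLC against ESC the call rate was 37.0% in B1_Mus and B1_Mm (204 rose, 3 fell), 33.2% in B1_Mur (188 rose, 2 fell), 25.8% in PB1 (164 rose, 5 fell) and 24.9% in B1F (100 rose, 6 fell). In pESC-PGCLC against pESC it was 22.3%, 18.9%, 17.3% and 16.9% in the same order. Over all rows the largest difference of mean levels was in B1_Mm in both origins (16.2 and 12.5 points). The smallest was in PB1 from ESC (9.83 points) and in B1F1 from pESC (6.23 points). Over 46 shared spans B1_Mm exceeded B1_Mur4 by 3.76 points in ESC and 3.37 in ESC-PGCLC, and by 4.68 in pESC and 4.81 in pESC-PGCLC. Its lead was thus hardly changed there. Its difference from each other subfamily set against it at shared spans was higher after induction in both origins, for B1F 3.08 points in ESC and 9.70 in ESC-PGCLC. The 376 rows called higher in both origins made up 57.3% of those called from ESC and 93.3% of those called from pESC. The 6 called lower in both origins made up 37.5% and 40%.

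The direction of these calls depended on scale. After centring, 672 rows were called from ESC, 253 higher and 419 lower, and 592 from pESC, 210 higher and 382 lower. Over all 136848 features, the centred counts were 71359 from ESC and 45543 from pESC. A row called lower here fell short of the shift in the library median, in log2 odds and by 10 points or more in level. Over features with a level in all 12 libraries that median was 13.2% and 11.2% in ESC, and 25.4% and 24.0% in ESC-PGCLC. It was 13.1% and 13.3% in pESC, and 23.3% and 22.7% in pESC-PGCLC. The median difference at a feature was smaller, 1.26 points from ESC and 0.566 points from pESC. A row called lower after centring therefore need not have changed less than the typical feature. The counts also depended on single libraries. From ESC the count was 1101 without ESC replicate 1, and 384 and 375 without ESC-PGCLC replicate 1 and 2. From pESC it was 231 without pESC replicate 1, and 190 and 201 without pESC-PGCLC replicate 1 and 2.

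The rows with the largest gains started near 0. B1_Mus1 15-51 was at 4.37% and 4.17% in ESC and 2.70% and 10.9% in pESC, and reached 73.5% and 72.2% in ESC-PGCLC and 68.9% and 67.8% in pESC-PGCLC (rises of 68.6 and 61.5 points, adjusted p = 0.000389 and 0.000941 by limma). It was at 91.8% and 94.99% in E9.5 PGC and at 63.0% and 64.8% in E12.5 PGC. B1F 2-142 was at 1.89% and 6.12% in ESC and 1.14% and 4.44% in pESC, and at 69.2% and 73.2% in ESC-PGCLC and 68.2% and 70.2% in pESC-PGCLC. B1_Mur3 14-141 was at 11.1% and 2.59% in ESC and 60.7% and 87.5% in ESC-PGCLC, and B1_Mur2 6-122 at 7.25% and 10.9% in pESC and 74.6% and 69.9% in pESC-PGCLC. These 4 rows were picked by their rise into PGCLCs, so the separation of their stem cell and PGCLC libraries is no finding. Their PGC libraries, which were not used to pick them, also lay above every stem cell library. Of the 1-147 rows, B1_Mus2, B1_Mus1 and B1_Mur1 rose from ESC to ESC-PGCLC (adjusted p = 0.0298, 0.0444 and 0.038 by limma), while B1_Mm (adjusted p = 0.0516) and B1F (adjusted p = 0.662) did not pass. From pESC to pESC-PGCLC none of these 5 rows passed (adjusted p = 0.127 for B1_Mus2, 0.196 for B1_Mus1, 0.556 for B1_Mur1, 0.179 for B1_Mm and 0.931 for B1F).

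A small set ran the other way. PB1D7 2-108 was at 40.9% and 48.5% in ESC and 67.7% and 55.3% in pESC, and at 5.47% and 4.26% in ESC-PGCLC, 3.10% and 3.65% in pESC-PGCLC, 0.958% and 1.74% in E9.5 PGC and 0.417% and 0.337% in E12.5 PGC. It fell by 39.8 points from ESC and by 58.1 points from pESC (adjusted p = 0.000257 and 0.000168 by limma). B1_Mus1 2-91 was at 70.9% and 48.6% in ESC and 50.5% and 40.2% in pESC, against 14.3% and 9.82% in ESC-PGCLC and 24.3% and 25.6% in pESC-PGCLC. B1_Mus2 2-34 fell by 38.1 and 38.9 points, and B1_Mus1 1-112 by 33.2 points from pESC. B1_Mus2 2-34 was uneven in PGCs, at 15% and 68.9% in E9.5 PGC.

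The same contrast was drawn over all groups at once. At 683 rows every ESC and pESC library lay below every PGC and PGCLC library (30.8% of the rows), and 17.2% of all features did so. By lineage group this held for 39.5% of rows in B1_Mus and B1_Mm, 33.9% in B1_Mur, 25.04% in PB1 and 24.2% in B1F. At 19 rows every ESC and pESC library lay above every PGC and PGCLC library, beside 2.37% of all features. The widest gaps of this kind were 35.4 points at PB1D7 2-108, 14.6 points at B1_Mus1 2-91 and 10.7 points at PB1D10 2-99, which were picked by their gap.

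Whether the gain depended on origin was tested as an interaction, the change from pESC to pESC-PGCLC less that from ESC to ESC-PGCLC. No row was called by limma, beside 0.0365% of all features, where the lowest adjusted p of a row was 0.175. Without adjustment, 122 rows were under 0.05 (5.51%, against 2.96% of all features, 3.11% of all repeats and 5.81% of B2). The difference of mean changes was -3.95 points and was negative at 1639 rows (74.0%). It ran from -5.19 points (B1F1) to -2.09 points (FAM) over the subfamilies, and leaving out ESC replicate 1 gave -8.19 points, but leaving out ESC replicate 2 gave 0.289 points, so its sign rested on the 2 unlike ESC libraries. Without ESC-PGCLC replicate 1, 5 rows were called.

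Some rows stayed at 1 end of the scale in every library. Under 10% in all 12 were 54 rows (2.44%, against 1.11% of all repeat rows and 36.6% of all features), and 22 of them were under 5%. They made up 3.36% of the PB1 group, 2.27% of B1_Mur, 2.14% of B1_Mus and B1_Mm and 1.65% of B1F. PB1D7 12-117 did not exceed 1.07% in any library, and B1_Mus2 9-99, of a young subfamily, lay between 0.63% and 1.42%. At the other end, 153 rows (6.91%, against 18.7% of all repeat rows and 6.80% of all features) were at 50% or above in all 12. PB1D11 5-108 was lowest in E12.5 PGC, at 75% and 84.6%, and B1_Mus2 1-124 at 70.4% and 71.7% there. These rows were picked by their levels and no test was made on them.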

How the data were processed

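RRBS levels were read for 12 libraries. By the study's account, the authors aligned bisulfite reads with Bismark (0.16.3 per the labels) and bowtie2, kept unique best alignments, treated duplicates and corrected for non-conversion, and the labels name the build mm10. The deposited values are fractions, the methylated part of the CG calls in a feature, printed here as percentages. Coverage minimum and read counts were not given in the sources used here. Copies that share a subfamily name and span may be averaged in a row, which can hide differences between them. SINE/Alu rows with a level in all 12 libraries were kept.

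Levels were tested with limma 3.58.1 (R 4.3.3). The scale was log2((level + 0.01) / (1 - level + 0.01)), and p-values were adjusted (Benjamini-Hochberg) over every feature in the fit. Fits held the 4 ESC and pESC libraries, the 8 PGC and PGCLC libraries, or the 8 stem cell and PGCLC libraries. The step was tested on simulated data. Groups and replicate numbers came from sample titles. Every subfamily was counted, the subfamilies with the largest and smallest difference were named, and of single rows the 3 called with the largest rise and the 3 with the largest fall per comparison. The rows spanning 1-147, the rows at an end of the scale and the rows that separate stem cells from germ cells were chosen after their values were seen. The members and lists were chosen with earlier results of these data known. Alternatives were another offset, untransformed levels, common features only, 1 fit of all libraries, median centring, no minimum difference, repeat rows only, a replicate block and leaving out each library. Other values were computed with Python 3.11.15, pandas 2.3.3 and numpy 2.4.6, and figures made with matplotlib 3.10.9. A sequence related to these elements is not reported here.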

Additional observations from a re-analysis of the deposited data

How the results depend on the processing

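Counts of called rows kept within 1.5 times the main count, with the same leading direction, in 66 of 80 results under alternatives other than leaving out a library. Centring each library on its median gave 603 called rows for E12.5 against E9.5 PGC, 305 and 471 for ESC-PGCLC and pESC-PGCLC against E9.5 PGC, and 152 and 13 against E12.5 PGC. Over all 137202 features the counts were 63569, 29617, 48932, 8188 and 1136 in the same order. Centring turned the leading direction of both inductions, with 672 called from ESC (419 lower) and 592 from pESC (382 lower). There, 71359 and 45543 of all 136848 features were called. A fit of all 12 libraries gave 234 and 5 called rows for ESC-PGCLC and pESC-PGCLC against E12.5 PGC, and the latter was 266 with no minimum difference. For pESC-PGCLC against ESC-PGCLC an offset of 0.1 gave 40 and untransformed levels 52.

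ESC and pESC libraries of the same number deviated in the same way (correlation 0.447 over all features), and other pairs of groups gave -0.054 to 0.159. With 2 pairs and no label tying numbers to a batch, the libraries share only a number. With the replicate block the pESC-PGCLC count against E12.5 PGC was 110 and that against ESC-PGCLC was 0, and it moved no other count by over 1.5 times. The cause of these changes was not tested.

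Leaving out each library in turn gave 0 to 13 called rows for pESC against ESC, 1651 to 1693 for E12.5 against E9.5 PGC, 1092 to 1117 and 1350 to 1430 for ESC-PGCLC and pESC-PGCLC against E9.5 PGC, 490 to 590 and 0 to 28 against E12.5 PGC, 0 to 10 between the PGCLCs, 375 to 1101 and 190 to 288 for induction of ESC and pESC, and 0 to 5 for the interaction. These fits assume that a lone library varies like the other groups. Mean differences ran from -4.11 to 4.37 points for pESC against ESC and from -8.19 to 0.289 for the interaction. The median over rows was -21.9 points for E12.5 against E9.5 PGC and 7.13 for induction of pESC, and the mean over subfamilies was -13.2 points for ESC-PGCLC against E9.5 PGC. Depth is unknown, so rows with few reads could not be weighted down.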

Other observations

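The 1434 SINE/Alu rows that lacked a level in at least 1 library were outside the comparisons. From 233 (ESC-PGCLC replicate 2) to 1272 (pESC replicate 1) of them were measured in a library, and in the same library their mean differed from that of the members by -3.57 to 0.85 points. The loss of rows was uneven over subfamilies, with 143 of 215 rows kept for B1_Mm, 231 of 340 for B1_Mus1 and 38 of 87 for PB1.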
